A study of Mus musculus with 6 samples.

Results

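SP8 peaks deep inside protein-coding genes were taken from the authors' SP8 replicate 1 peak list in mouse forelimb ectoderm. A peak was counted as deep when its centre lay between the start and end of a protein-coding gene and more than 1000 bp from every protein-coding gene start or end. Of the 1447 peaks placed on chromosomes 1 to 19 and X, 454 met this rule (31.4%, Wilson 95% interval 29.0 to 33.8). The whole list held 1451 peaks. The remaining placed peaks were 528 within 1000 bp of a protein-coding boundary and 465 outside protein-coding genes. The 454 deep peaks lay in 425 different genes, called host genes below.

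Chromatin immunoprecipitation with sequencing (ChIP-seq) recovers the DNA to which a protein is bound. SP8-FLAG chromatin came from forelimb ectoderm at stage E10.5, from embryos homozygous for a FLAG-tagged Sp8 knock-in allele (genotype label Sp8FL KI), on the background strain C57BL6J, with an anti-FLAG antibody. The labels list 2 SP8-FLAG libraries and 2 inputs, which are chromatin sequenced without antibody, each from the pooled ectoderm of 50 forelimb buds, and 1 H3K4me2 immunoprecipitation and 1 input labelled WT on the same background. Only the peak list of SP8 replicate 1 was analysed here, and no peak has a known depth or a replicate check. The list holds no signal value, and the labelled tissue could not be checked against marker genes.

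SP8 binds DNA through zinc fingers and belongs with the SP and KLF factors, which recognise GC-rich sequences known as GC boxes and related CACCC sequences. In the limb it is known from the apical ectodermal ridge, the thickened rim of ectoderm that drives outgrowth, where it works together with Sp6 downstream of Wnt signalling and is needed for Fgf8 expression. Binding sites inside genes can be enhancers in introns, or promoters from which shorter transcripts of the same gene begin.

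The question whether deep peaks lay at transcript starts inside their hosts could be put to the RefSeq table of promoters (assembly GRCm38.p6). It lists 1 or more transcript starts and their strand for 337 of the 425 host genes. The table held 21045 starts for 17274 protein-coding genes, so a start inside a gene record can be the only listed start of that gene. How often this was so was not counted, and main promoters were not told apart from promoters of shorter transcripts. Starts were listed for the hosts of 363 deep peaks, and 74 of these peaks (20.4%, 16.6 to 24.8) had their centre within 1 kb of a listed start of their own host. For 71 of the 74, that start was itself more than 1 kb from every protein-coding boundary, and for 22 it was more than 10 kb from any. The median distance to the start was 175 bp (quartiles 64.5 and 333.75), and 25 peaks were within 100 bp of it. These zones were a small part of the space searched. The deep interior within 1 kb of a host start came to 7.76 Mb (0.994% of the deep interior of genes with listed starts) and held 9.54 peaks per Mb (95% Poisson interval 7.49 to 11.98). The remaining 772.9 Mb held 0.379 per Mb (0.337 to 0.425), a ratio of 25.2. The intervals do not overlap. All intervals in the text cover counting error over peaks or genes, not variation between embryos.

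The sequences upstream of such starts are shown because the starts lie within 1 kb of a peak centre. Some of the windows do not reach the peak itself, as in Wnt6, Ptch1 and Tjp1. Below are the 250 bases before 12 internal starts, chosen after their values were seen: genes of the Wnt and Hedgehog pathways, genes with repeated peaks, a junction gene, a chromatin gene, the earliest deep peak of the list and 2 contrasting cases. They are RefSeq sequences (GRCm38.p6), written 5′ to 3′ on the strand of the gene, and capitals mark each GC box, GGGCGG or its reverse complement CCGCCC, with overlapping matches allowed.
Usp2, chr9:44084670-44084919, plus strand: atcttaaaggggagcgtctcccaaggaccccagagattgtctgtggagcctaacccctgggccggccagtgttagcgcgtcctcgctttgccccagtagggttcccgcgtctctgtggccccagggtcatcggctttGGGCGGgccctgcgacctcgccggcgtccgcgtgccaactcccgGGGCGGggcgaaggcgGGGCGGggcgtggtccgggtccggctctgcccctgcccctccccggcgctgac
Bcl9, chr3:97227365-97227614, minus strand: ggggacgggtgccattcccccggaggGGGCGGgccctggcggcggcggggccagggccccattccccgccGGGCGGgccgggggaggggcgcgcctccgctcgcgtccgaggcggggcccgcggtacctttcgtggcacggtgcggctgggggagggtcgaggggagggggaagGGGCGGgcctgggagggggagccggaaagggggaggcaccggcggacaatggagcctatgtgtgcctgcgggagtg
Wnt6, chr1:74771642-74771891, plus strand: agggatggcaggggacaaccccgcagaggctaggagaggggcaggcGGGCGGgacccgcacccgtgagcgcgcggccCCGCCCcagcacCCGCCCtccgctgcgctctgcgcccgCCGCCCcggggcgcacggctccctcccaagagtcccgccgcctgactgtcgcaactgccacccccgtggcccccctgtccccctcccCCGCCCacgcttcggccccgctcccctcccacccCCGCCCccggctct
Ptch1, chr13:63565736-63565985, minus strand: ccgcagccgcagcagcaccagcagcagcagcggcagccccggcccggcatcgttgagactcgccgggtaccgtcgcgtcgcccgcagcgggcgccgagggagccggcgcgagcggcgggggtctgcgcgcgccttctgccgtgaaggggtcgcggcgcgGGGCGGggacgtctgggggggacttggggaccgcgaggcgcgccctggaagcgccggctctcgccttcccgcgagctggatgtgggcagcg
Pdgfa, chr5:138994945-138995194, minus strand: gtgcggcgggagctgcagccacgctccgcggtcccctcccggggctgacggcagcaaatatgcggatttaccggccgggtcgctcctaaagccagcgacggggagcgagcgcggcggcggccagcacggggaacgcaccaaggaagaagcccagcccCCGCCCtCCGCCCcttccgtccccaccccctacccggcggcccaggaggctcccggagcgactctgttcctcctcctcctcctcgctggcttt
Gse1, chr8:120535607-120535856, plus strand: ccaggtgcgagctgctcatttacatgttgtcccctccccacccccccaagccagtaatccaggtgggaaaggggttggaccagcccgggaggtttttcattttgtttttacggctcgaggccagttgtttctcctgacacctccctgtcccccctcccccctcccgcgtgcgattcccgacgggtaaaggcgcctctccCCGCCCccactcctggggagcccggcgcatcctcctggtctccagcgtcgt
Gnas, chr2:174329756-174330005, plus strand: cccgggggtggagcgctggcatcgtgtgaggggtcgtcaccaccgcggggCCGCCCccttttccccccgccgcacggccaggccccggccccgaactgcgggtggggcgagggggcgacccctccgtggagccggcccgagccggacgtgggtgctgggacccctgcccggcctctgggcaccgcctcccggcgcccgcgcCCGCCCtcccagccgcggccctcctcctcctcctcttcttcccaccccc
Palld, chr8:61591140-61591389, minus strand: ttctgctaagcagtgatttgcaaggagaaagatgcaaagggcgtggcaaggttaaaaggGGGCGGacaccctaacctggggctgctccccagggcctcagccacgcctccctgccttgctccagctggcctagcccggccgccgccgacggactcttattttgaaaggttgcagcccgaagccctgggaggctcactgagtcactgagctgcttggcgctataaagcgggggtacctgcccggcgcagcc
Arid1a, chr4:133753986-133754235, minus strand: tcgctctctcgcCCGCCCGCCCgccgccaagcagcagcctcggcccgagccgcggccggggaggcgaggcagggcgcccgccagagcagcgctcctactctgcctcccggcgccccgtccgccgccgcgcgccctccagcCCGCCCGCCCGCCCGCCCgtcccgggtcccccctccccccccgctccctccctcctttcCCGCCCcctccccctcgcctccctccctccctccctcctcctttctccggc
Tjp1, chr7:65371245-65371494, minus strand: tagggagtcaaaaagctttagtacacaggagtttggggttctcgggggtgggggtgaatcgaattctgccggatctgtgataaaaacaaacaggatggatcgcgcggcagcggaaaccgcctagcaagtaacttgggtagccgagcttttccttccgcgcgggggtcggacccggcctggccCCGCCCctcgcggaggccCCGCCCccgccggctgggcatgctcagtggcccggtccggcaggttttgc
Btbd11, chr10:85386564-85386813, plus strand: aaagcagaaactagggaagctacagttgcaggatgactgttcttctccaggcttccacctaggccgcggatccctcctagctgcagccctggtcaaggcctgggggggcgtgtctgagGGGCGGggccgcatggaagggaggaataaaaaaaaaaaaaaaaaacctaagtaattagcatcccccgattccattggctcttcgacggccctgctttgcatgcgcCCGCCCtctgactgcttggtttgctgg
Slc7a11, chr3:50443614-50443863, minus strand: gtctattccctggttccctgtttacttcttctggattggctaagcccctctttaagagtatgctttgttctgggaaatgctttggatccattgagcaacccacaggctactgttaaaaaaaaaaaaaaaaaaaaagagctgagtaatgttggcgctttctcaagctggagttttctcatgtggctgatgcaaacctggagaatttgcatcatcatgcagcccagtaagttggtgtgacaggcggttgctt
Among these windows, Arid1a, a subunit of a chromatin-remodelling complex, held 7 GC boxes. Wnt6, a Wnt ligand of surface ectoderm, held 6. Slc7a11, a cystine transporter, held 0 at a start 78 bp from the peak centre, and its window had a G+C content of 43.2%. Btbd11 was the only 1 of the 82 internal starts with a peak whose window held TAATTA, the core of many homeodomain sites.

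Of 3881 listed starts more than 1 kb from every protein-coding boundary, 82 had a deep peak within 1 kb (2.11%, 1.71 to 2.61). Among the 17164 other listed starts of protein-coding genes, 485 had a peak of any class within 1 kb (2.83%, 2.59 to 3.08). The internal starts were scored against deep peaks alone, so one without a deep peak can still have a boundary peak within 1 kb. The 2 shares are thus not measured alike. The 82 internal starts with a deep peak belonged to 71 genes. Upstream windows of neighbouring starts of a gene can overlap, as in Rab3il1 and Lmo4. The intervals count each start separately and do not allow for this. A GC box was present upstream of 43.1% of all 21045 protein-coding starts in the table. It was upstream of 68 of the 82 (82.9%, 73.4 to 89.5), against 1322 of the 3799 internal starts without a deep peak (34.8%, 33.3 to 36.3). Starts near gene boundaries with a peak within 1 kb had a similar share, 81.9% of 485 (78.2 to 85.0). The related CACCC box, searched as GGGTGG or CCACCC, was upstream of 43.9% of the 82 (33.7 to 54.7) and 31.6% of the internal starts without a deep peak (30.2 to 33.1). TAATTA, which is its own reverse complement, was upstream of 1.22% (0.216 to 6.59) and 4.24% (3.64 to 4.93).

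**Figure D1:**
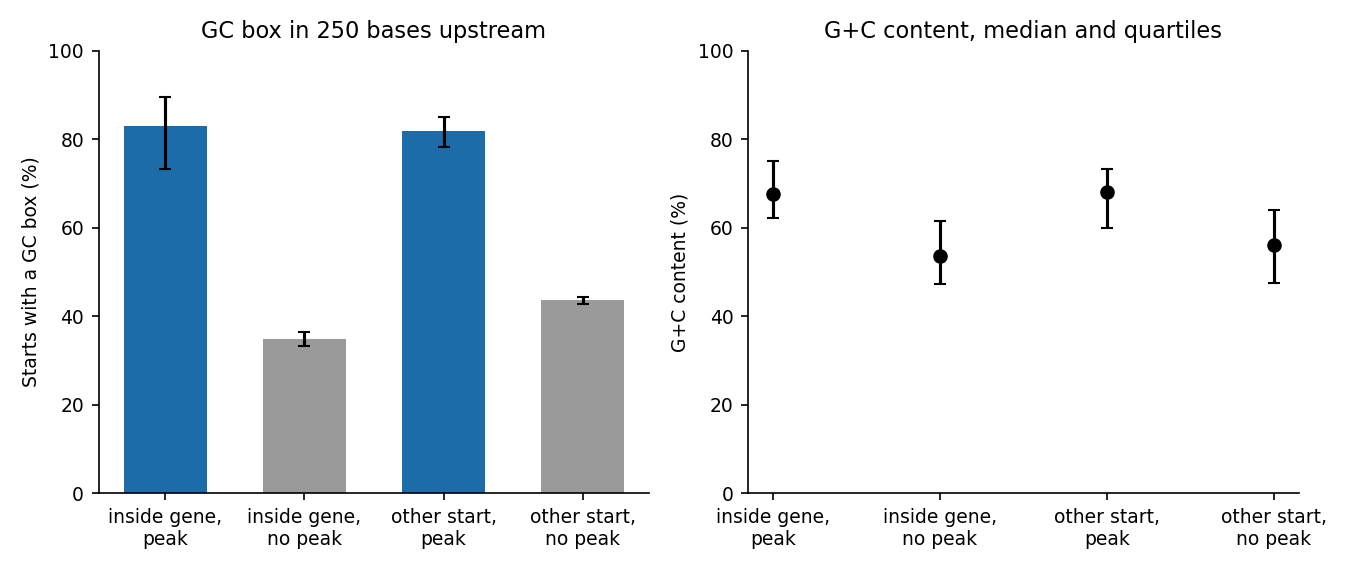
Left, share of listed starts with a GC box in the 250 bases upstream (bars, with 95% Wilson intervals), and right, the G+C content of those bases (points are medians, lines run between quartiles). Starts inside genes with a deep peak within 1 kb (n = 82) resemble other starts with a peak of any class (n = 485) in both panels. Starts inside genes without a deep peak (n = 3799) and other starts without a peak of any class (n = 16679) lie lower.

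Base composition moved together with the motif. The median G+C content was 67.6% at internal starts with a deep peak (quartiles 62.1 and 75.1) and 53.6% at those without (47.2 and 61.6). The share of internal starts with a deep peak was 0.225% below a G+C content of 50%, 0.818% from 50 to 60%, 4.21% from 60 to 70% and 8.29% from 70%. Within the class from 60 to 70%, a GC box was upstream of 30 of 33 starts with a peak (90.9%, 76.4 to 96.9) and 67.9% of 750 without (64.4 to 71.1). From 70% on, the shares were 97.1% of 35 (85.5 to 99.5) and 90.4% of 387 (87.1 to 93.0), and the intervals overlap. They also overlap from 50 to 60%, with 4 of 11 (36.4%, 15.2 to 64.6) and 28.0% of 1333 (25.6 to 30.5). Below 50% a GC box was upstream of 0 of 3 starts with a peak and 90 of 1329 without (6.77%). The part of G+C content in the difference was not tested further. The motifs are descriptions of the letters in these windows, and no genome sequence was used, so the other deep peaks have no sequence here.

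The genes with a peak on an internal start had varied roles. Peak number 3, the earliest deep peak in the list, was 1000 bp wide and lay in Usp2, a deubiquitinase gene. Its centre was 336 bp from a start that lies 10707 bp from the nearest protein-coding boundary, and 406 bp from a boundary of the lncRNA gene Gm39325. In Palld, which encodes the actin-binding protein palladin, peak 38 was centred 141 bp from a start that lies 79708 bp from the gene's nearer end. In Tjp1, which encodes the tight-junction protein ZO-1, a peak 1028 bp wide lay 694 bp from an internal start, 74.4 kb from the nearest boundary. In Dnmt3a, a DNA methyltransferase gene, a peak was centred 87 bp from an internal start, 90.1 kb from the 5′ end of the 112.9 kb gene. Other starts with a peak centre within 100 bp included Tbc1d1 (17 bp), Ece1 (18 bp), Clk3 (20 bp), Midn (30 bp), Slc39a11 (38 bp), Gnas (42 bp) and Srpk2 (48 bp). In Wnt6 the start 707 bp from the peak lay 13430 bp from the nearest protein-coding boundary, inside a gene record of 31.0 kb.

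Deep peaks within 1 kb of a listed host start and the other deep peaks differed in where they lay. The groups were split by distance to listed starts, and the places of starts without a peak were not compared. The host genes of the 74 peaks at a start had a median length of 36.2 kb (95% interval of the median 24.5 to 62.4), against 122.1 kb (100.4 to 152.2) for the 289 peaks without a host start within 1 kb. The median distance to a protein-coding boundary was 4.33 kb (2.77 to 6.87) and 25.9 kb (18.7 to 31.5). Peak widths were closer, with medians of 367 bp (306 to 425) and 331 bp (316 to 346), and these intervals overlap. When each host was divided into 5 equal parts from 5′ to 3′, 40 of the 74 peaks at a start (54.1%, 42.8 to 64.9) fell in the part at the 5′ end and 2 (2.70%) in the part at the 3′ end. Of the 288 others with a known strand, 62 (21.5%, 17.2 to 26.6) fell in the part at the 5′ end, and the later parts held 63, 62, 57 and 44. Deep peaks away from starts did not gather in the part at the 5′ end, and the part at the 3′ end held the fewest (15.3%, 11.6 to 19.9). Over all 362 deep peaks with a known host strand, the median distance to the 5′ end of the gene was 31.4 kb (21.8 to 37.9).

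**Figure D2:**
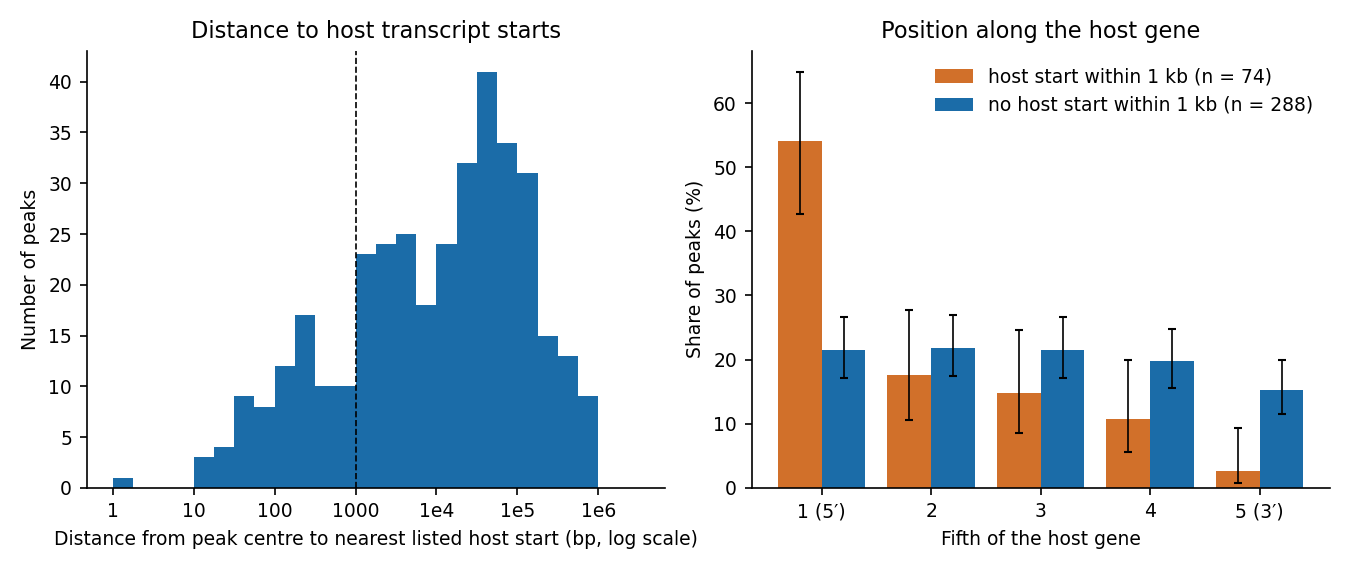
Left, number of deep peaks by distance from the peak centre to the nearest listed start of the host gene (bp, log scale; the dashed line is 1000 bp, and 74 of 363 peaks lie at or left of it). Right, share of peaks in each of 5 equal parts of the host gene with 95% Wilson intervals, where peaks at a start gather in the part at the 5′ end (54.1%) and the others do not (21.5%).

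Noncoding genes inside or across the hosts accounted for a smaller number. A boundary of a gene that is not protein-coding was within 1 kb of 28 deep peaks (6.17%, 4.30 to 8.77), against 10.8% (8.25 to 13.9) of peaks outside protein-coding genes and 13.6% (10.97 to 16.8) of boundary peaks. For 23 of the 28 peaks the nearest such gene was a lncRNA gene, for 3 a miRNA gene, for 1 a snRNA gene and for 1 an antisense RNA gene, and both Bahcc1 peaks shared the lncRNA gene Gm11772. The closest was Gm31734, whose boundary was 4 bp from the centre of peak 605 in Tcf7l2, a nuclear effector of Wnt signalling. It was followed by 2410022M11Rik in Zmym5 (5 bp), Gm11772 in Bahcc1 (36 bp), Gm15417 in Zbtb7b (75 bp) and BC037032 in Oxct1 (80 bp). Of the 363 peaks whose host had listed starts, 275 had neither a host start nor a noncoding boundary within 1 kb.

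The 3 miRNA genes were Mir34b, 365 bp from a peak centre in Btg4, Mir12181, 315 bp from a peak in Coro6, and Mir8092, 243 bp from a peak in Zfp518a. Their mature sequences from RefSeq are given 5′ to 3′ with the seed, bases 2 to 8, in capitals. The seed is the stretch by which a miRNA pairs with its targets.
mmu-miR-34b-3p: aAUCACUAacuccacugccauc
mmu-miR-34b-5p: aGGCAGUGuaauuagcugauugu
mmu-miR-12181-5p: uUGAGGGUgcauaaggacugga
mmu-miR-12181-3p: uCCAGGCCucuugcucucuca
mmu-miR-8092: gCCAUCUGggacucgcaggca
The 5 mature sequences had 5 different seeds. Mir34b belongs to the miR-34 family, which is known for its induction by p53, and the Btg4 peak, chr9:51103873-51104148, lay 771.8 kb from the next peak of the list. The Btg4 peak was also inside a second gene, Hoatz. In all, 6 deep peaks lay inside 2 protein-coding genes at once, the others in Schip1 and Iqschfp, Zfp397 and Zscan30, Brd2 and H2-DMa, Gm31513 and Mideas, and Flrt1 and Macrod1.

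Host genes were long, and the rule itself favours length, since a longer gene offers more room for a deep peak. The median host length was 92.9 kb (72.8 to 108.9, quartiles 29.0 and 223.4), against 21.4 kb for all 19108 protein-coding genes over 2 kb. The deep interior of all genes summed to 1000.2 Mb and was itself concentrated in long genes, with equal amounts above and below a gene length of 149.5 kb. Per length of interior, the deep peaks were denser in short genes. Here and in the other densities a peak inside 2 genes counts once for each gene, which gives 460 pairs of a peak and a gene. Genes of 2 to 10 kb held 1.85% of the deep interior and 6.30% of the pairs, or 1.57 peaks per Mb (1.05 to 2.25). Genes over 300 kb held 31.7% of the interior and 20.4% of the pairs, or 0.296 per Mb (0.240 to 0.363). The classes between had 0.830, 0.455 and 0.441 peaks per Mb in order of length, and the value over all genes was 0.460 (0.419 to 0.504). The share of peaks at a host start did not follow the same order. Among peaks with listed host starts it was 7 of 24 in genes of 2 to 10 kb (29.2%), 28 of 65 at 10 to 30 kb (43.1%), 22 of 95 at 30 to 100 kb (23.2%), 13.7% at 100 to 300 kb and 3 of 77 in genes over 300 kb (3.90%).

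**Figure D3:**
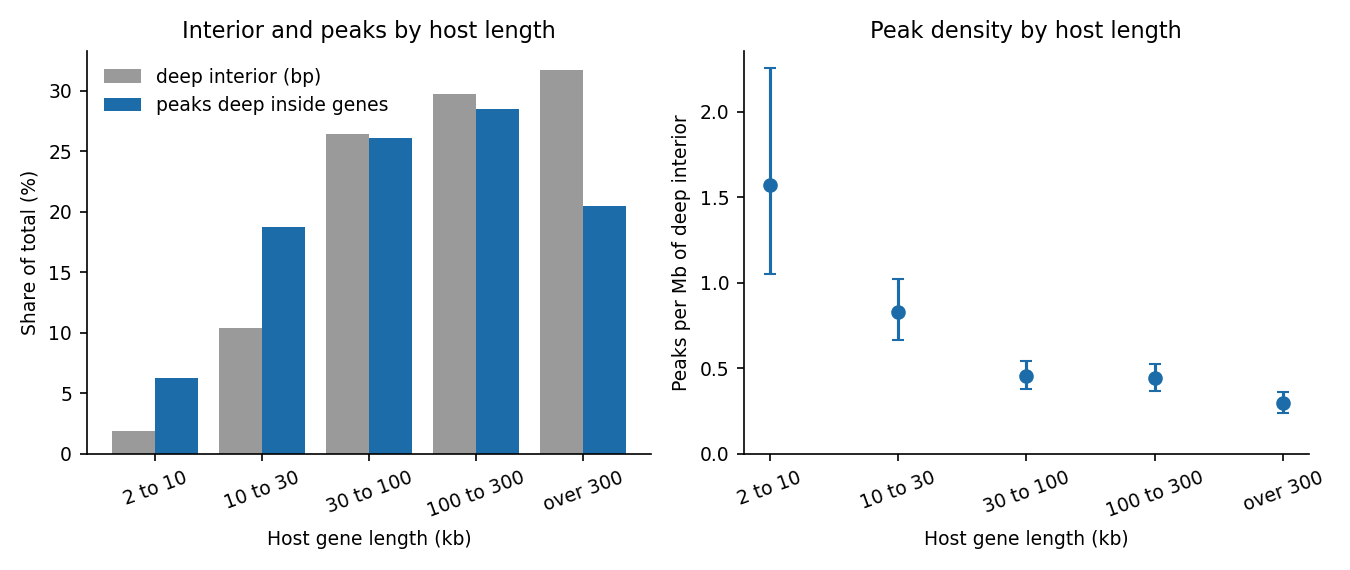
Left, share of the total deep interior (grey) and of pairs of a deep peak and its host gene (blue) by host gene length class, and right, deep peaks per Mb of deep interior with 95% Poisson intervals. Density was 1.57 per Mb in genes of 2 to 10 kb and 0.296 per Mb in genes over 300 kb.

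The shortest hosts were Jund (2.88 kb), Insm2 (3.10 kb), Gm52006 (3.84 kb), Zfp36l2 (4.02 kb) and Mex3b (4.24 kb). Jund encodes a subunit of the AP-1 transcription factor, and Zfp36l2 and Mex3b encode RNA-binding proteins. In these genes a peak more than 1 kb from both ends is near the middle: the Jund peak was 1058 bp from its nearest boundary and the Zfp36l2 peak 1561 bp. Among the 5 longest hosts were Lsamp (2197.4 kb), Pde4d (1301.8 kb), Tenm3 (1297.2 kb) and Agbl4 (1266.7 kb). Lsamp is a neural adhesion molecule and Tenm3 a teneurin. The most remote deep peak was number 1055 in Tenm3, chr8:48843882-48844315, 618.4 kb from any protein-coding boundary and 213 bp from a boundary of the lncRNA gene Gm19744. Other remote peaks were in Sgcd (488.4 kb), Pde4d (443.4 kb) and Erc2 (388.5 kb). At the other end, 67 deep peaks (14.8%) lay 1 to 2 kb from a boundary and 68 (15.0%) between 2 and 5 kb. Just inside the limit were peaks in Zfp518a (1001 bp), Slc25a39 (1017 bp) and Lemd2 (1022 bp), and just outside it peaks in Rbp2 (1000 bp), Zbtb2 (998 bp) and Klf12 (988 bp).

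Of 19064 protein-coding genes with any deep interior, 425 held a deep peak (2.23%) and 30 held 2 or more (0.157%). The 30 genes with repeated peaks held 65 deep peaks, and had a median length of 209.1 kb against 82.5 kb for the 395 single hosts. In 9 of them the closest pair was under 10 kb apart, and in 12 it was over 50 kb apart. None of the 30 had a peak at its own boundary. Of all host genes 20 of 425 did (4.71%, 3.07 to 7.16), against 3.07% of all genes with deep interior.

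Of the 5 genes with 3 deep peaks, 2 held them close together. Kdm6b encodes a demethylase of histone H3 lysine 27. Its 3 peaks, of 224, 245 and 369 bp, lay within 6.52 kb of a 21.9 kb gene (chr11:69398508-69420367), with the nearest pair 1647 bp apart. Pdgfa encodes a ligand of the platelet-derived growth factor receptor, known to be made by epithelia and to act on the mesenchyme beneath. Its peaks were 1.20, 5.84 and 8.15 kb from the 5′ end of a 24.8 kb gene (chr5:138976014-139000792) and 255, 1680 and 1064 bp wide. The middle one was centred 11 bp from the internal start printed above.

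The other 3 genes were spread wide. Gse1, a gene of 352.9 kb, had peaks 221.7, 307.7 and 321.6 kb from its 5′ end, and the second, 839 bp wide, was 365 bp from an internal start. Sorbs2, which encodes an adaptor of the actin cytoskeleton, had peaks at 114.4, 166.5 and 218.8 kb. Utrn encodes utrophin, a relative of dystrophin, and had peaks 1.10, 233.3 and 341.2 kb from its 5′ end. Peaks of Sorbs2 and Utrn were not within 1 kb of a listed host start.

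Exactly 2 deep peaks were found in 25 genes. The closest pairs were in Csf2ra (1.91 kb apart), Bahcc1 (2.46 kb), Ptch1 (3.48 kb), Zfp710 (5.17 kb), Gnas (5.28 kb), Tnrc18 (6.94 kb) and Tcf7l1 (8.46 kb). They were followed by Mical3 (12.2 kb), Zmynd8 (14.7 kb), Mxi1 (24.7 kb), Kif26a (26.4 kb) and Fto (28.5 kb). In Bahcc1 the 2 peaks were 261 and 2737 bp wide, 2.35 and 4.81 kb from the 5′ end. In Gnas, which encodes the stimulatory G protein subunit and is an imprinted locus with several promoters, the peaks were 439 and 835 bp wide. The wider one lay 42 bp from an internal start and the other 2982 bp from any listed start. In Tnrc18 a peak of 1488 bp lay 8.76 kb from the 5′ end and another of 346 bp at 1.82 kb.

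**Figure D4:**
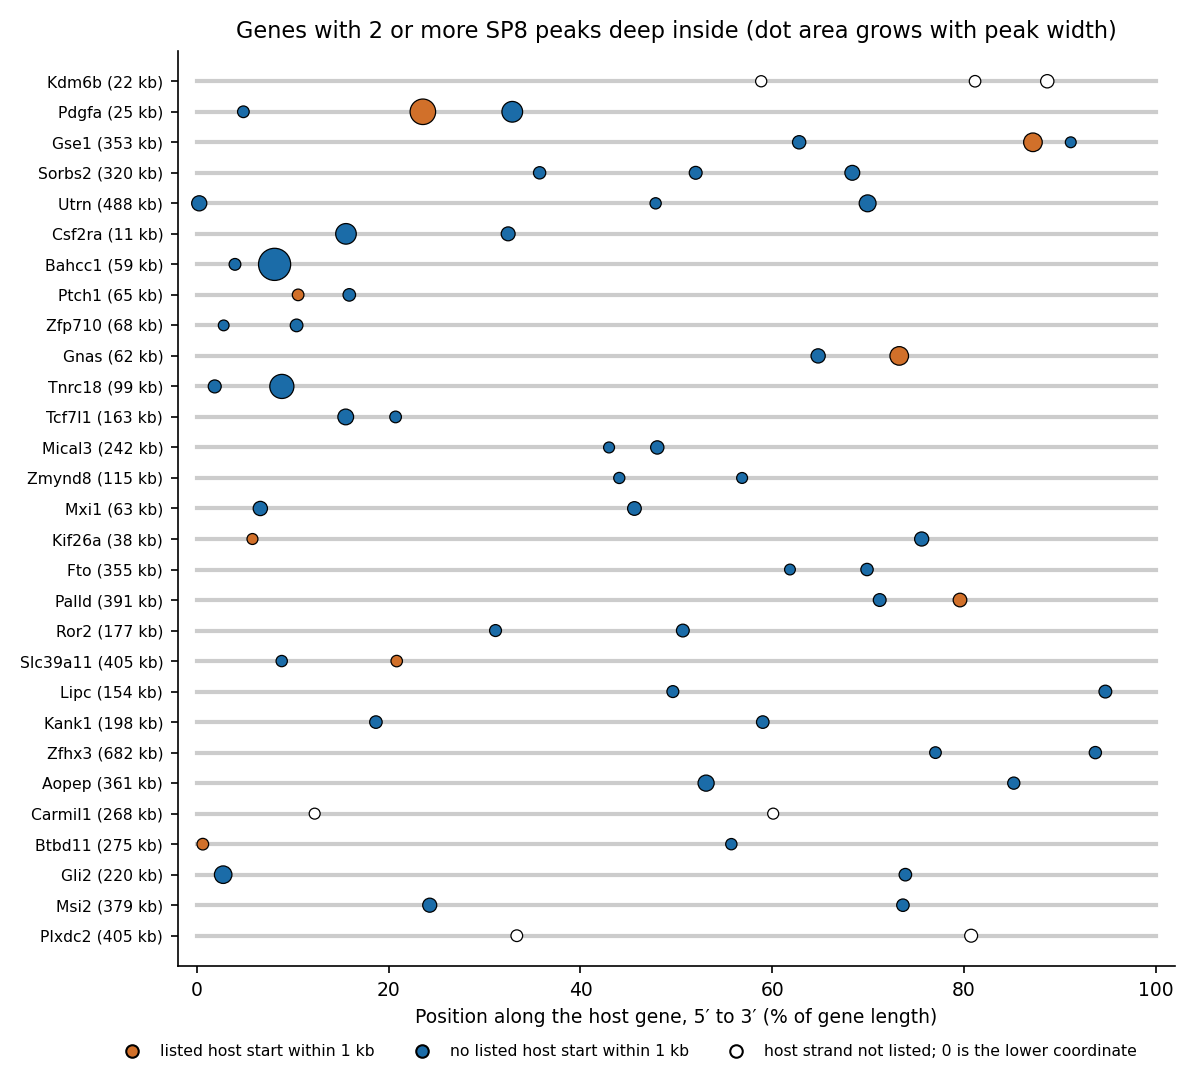
Genes with 2 or more deep peaks (29 drawn), each a line from its 5′ end (0) to its 3′ end (100% of gene length), ordered by number of peaks and then by the smallest gap. Each dot is a peak, dot area grows with peak width, orange marks a listed host start within 1 kb, and white marks genes without a listed strand, drawn from the lower coordinate. Pairs in Bahcc1, Ptch1, Zfp710 and Tnrc18 sit in the part near the 5′ end.

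Host genes were then counted in 14 gene lists that had been written down for limb ectoderm and its surroundings with earlier results of these data known. Of their 469 genes with deep interior, 43 were hosts. The Wnt pathway list stood highest by share of genes. It held 13 hosts among 48 genes (27.1%), where 2.23% of all protein-coding genes with interior were hosts, and 4.68 deep peaks per Mb of its interior (2.62 to 7.71), where all genes together had 0.460. Its median gene length of 45.1 kb was longer than the 21.4 kb of genes in general. Density itself changed with gene length, and all genes of 30 to 100 kb held 0.455 peaks per Mb (0.377 to 0.544). As the lists were chosen with results in view, these values are a description of the list.

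Wnt ligands are secreted proteins by which the ectoderm signals to itself and to the mesenchyme, and 6 of them were hosts. The peaks lay 8.10 kb from the nearest boundary in Wnt3, 5.39 kb in Wnt4, 1.08 kb in Wnt5a, 14.1 kb in Wnt6, 5.57 kb in Wnt10a and 2.14 kb in Wnt10b. The Wnt3 peak, chr11:103809619-103810224, was 605 bp wide and lay toward the 3′ side of the gene, 35.7 kb from its 5′ end. The Wnt4 peak, chr4:137282883-137283175, was 5.39 kb from the 5′ end of the gene and 292 bp wide. At the level of receptors, Ror2, a receptor for Wnt5a, held 2 peaks 55.1 and 89.6 kb from its 5′ end. Kremen1, a co-receptor of the inhibitor Dkk1, and Znrf3, a ubiquitin ligase that removes Frizzled receptors, held 1 each, and both also had a peak at a gene boundary. Of the nuclear effectors, Tcf7l1 held 2 peaks, 25.2 and 33.7 kb from its 5′ end, and Tcf7l2 held 1 at 1.41 kb. Bcl9 and Bcl9l, co-activators of beta-catenin, each held a wide early peak, number 112 of 912 bp and number 74 of 936 bp. The Bcl9 peak was 281 bp from an internal start, and the sequence upstream of it held 3 GC boxes.

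Other signalling pathways held fewer hosts. In the Hedgehog list 2 of 16 genes were hosts (12.5%, with 3.60 peaks per Mb, 0.981 to 9.22), each with 2 peaks: the receptor Ptch1, 6.87 and 10.3 kb from its 5′ end, and the transcription factor Gli2, 5.999 and 162.8 kb from its 5′ end. The first Ptch1 peak was 858 bp from an internal start. In the BMP and TGF-beta list 3 of 37 were hosts (8.11%), against 2.23% of all genes, with 1.08 peaks per Mb (0.222 to 3.15), an interval that includes the 0.460 of all genes. The hosts were the inhibitory Smads Smad6 and Smad7 and the pseudoreceptor Bambi. Their peaks were 483, 432 and 258 bp wide and lay 4.80, 13.1 and 2.19 kb from the nearest boundary, and Smad7 and Bambi also had a peak at a gene boundary. In the Notch list the host was the co-activator gene Maml3 (1 of 23, with 0.664 peaks per Mb, 0.0168 to 3.70). The FGF list had 0 hosts of 21, which allows a share of up to 14.3%.

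Genes of the ectoderm itself were hosts too. In the list of surface ectoderm transcription factors 6 of 44 genes were hosts (13.6%, with 1.58 peaks per Mb, 0.579 to 3.43). Trp63, the master regulator of stratified epithelia, held peak 66, 363 bp wide, 7.12 kb from the boundary of a 208.3 kb gene. Tfap2a held a peak 15.2 kb from its 5′ end, Grhl3 one at 3.43 kb, and Dlx1, Nr2f2 and Tbx3 held 1 each, of 207, 886 and 663 bp. Among SP and KLF factors 3 of 26 were hosts (11.5%, with 2.85 peaks per Mb, 0.587 to 8.32). The peaks in Sp8 and Sp6 were the widest and the fifth widest deep peaks, 3587 and 1824 bp, and Klf7 held peak 36, 460 bp wide and 34.3 kb from its 5′ end. Because Sp8 is the tagged gene itself, its peak would need an untagged control, which was not analysed here. Of 34 basement membrane and integrin genes 3 were hosts (8.82%, with 0.680 peaks per Mb, 0.140 to 1.99): Fras1 and Frem1, which encode proteins that anchor the ectoderm to its basement membrane, and Itgav. Among 36 adhesion and junction genes the host was Tjp1, a share of 2.78% near the 2.23% of all genes, and the list held 0.323 peaks per Mb (0.00819 to 1.80). Chromatin regulators held 3 hosts of 50 (0.716 peaks per Mb, 0.232 to 1.67), which were Kdm6b, Arid1a and Dnmt3a. Of these lists, the intervals of the Wnt, Hedgehog, SP and KLF and surface ectoderm lists lay above the 0.460 of all genes. The Wnt and Hedgehog lists, of median length 45.1 and 45.5 kb, also lay above the 0.455 of genes of 30 to 100 kb. The SP and KLF and surface ectoderm lists had shorter genes, with medians of 11.3 and 25.7 kb. Their intervals include the 0.830 of genes of 10 to 30 kb. As all the lists were written with earlier results known, these comparisons describe the lists and are not tests. The Hedgehog value rests on 4 peaks in 2 genes. The SP and KLF value rests on 3 peaks, 1 of them in the tagged gene Sp8.

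Lists of genes with other roles were counted the same way. The limb mesenchyme list held 0 hosts of 30 genes and the splicing and ribosome list 0 of 30, each of which allows up to 10%. Their deep interior was small, 1.17 and 0.301 Mb, and the upper Poisson limits of 3.15 and 12.3 peaks per Mb exceed the value for all genes. Long neuronal adhesion and synapse genes held 6 hosts of 36 (16.7%), among them Ctnna2, Kcnip4, Lsamp and Rbfox3. Their median length was 1135.2 kb, and per length they held 0.156 peaks per Mb (0.0625 to 0.320), where all genes had 0.460. The share was near that of genes over 300 kb in general, of which 14.4% were hosts (11.7 to 17.5). Genes over 300 kb held 0.296 per Mb (0.240 to 0.363), a higher value whose interval overlaps that of the list.

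**Figure D5:**
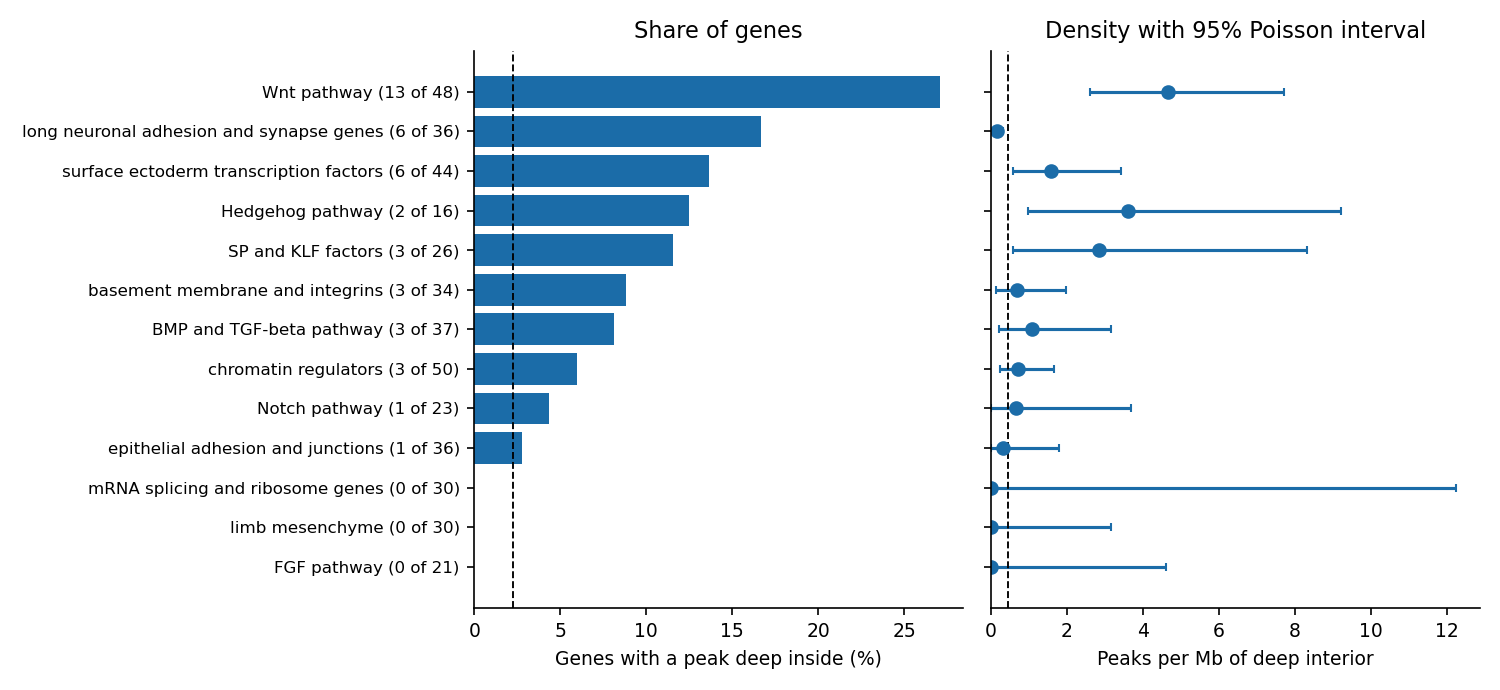
Left, share of genes that hold a deep peak in each of 13 lists, with the share over all genes (2.23%) as a dashed line, and right, deep peaks per Mb of deep interior with 95% Poisson intervals and the value over all genes (0.460) as a dashed line. The Wnt list is highest in both panels, and the long neuronal list is second by share but has a density of 0.156 per Mb.

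Deep peaks were of about the same width as other peaks. Their median width, end minus start, was 336.5 bp (324 to 350), against 344.5 bp (325 to 361) at boundaries and 331 bp (317 to 343) outside protein-coding genes. Peaks over 1 kb made up 14 of the 454 (3.08%, 1.85 to 5.11). After Sp8 (3587 bp), the widest were in Midn (3016 bp), Bahcc1 (2737 bp), Zfp36l2 (1918 bp), Sp6 (1824 bp), Pdgfa (1680 bp), Asmt (1543 bp), Tnrc18 (1488 bp), Il3ra (1335 bp) and Jade2 (1270 bp). The Midn peak was centred 30 bp from an internal start.

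The running number of a peak, whose meaning is not stated, gave no concentration of deep peaks. Their median number was 751 (676 to 813), between 625 (558 to 692) for peaks outside protein-coding genes and 794.5 (727 to 861) for boundary peaks. In 10 equal parts of the list the share of deep peaks ran from 28.3 to 34.0%. The 10 earliest were in Usp2 (3), Dip2c (4), Pde7b (10), Npas4 (12), Irf8 (15), Angel1 (17), Plxna2 (21), Mapkbp1 (22), Sp8 (25) and Itga9 (26). Plxna2 is a semaphorin receptor and Itga9 an integrin subunit, with peaks 18.2 and 99.1 kb from their 5′ ends.

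Another peak centre lay within 10 kb of 33 deep peaks (7.27%, 5.22 to 10.03), against 3.60% (2.32 to 5.55) of boundary peaks and 5.38% (3.67 to 7.82) of peaks outside protein-coding genes. For 20 of the 33 the nearest neighbour was itself a deep peak. Across chromosomes, deep peaks made up 24.1% (chromosome 4) to 45.2% (chromosome 19) of placed peaks. Chromosome X held 4, or 0.0913 per Mb of deep interior (0.0249 to 0.234), the lowest density of any chromosome, and chromosome 16 came next with 0.286 (0.143 to 0.512). Chromosome X had 13 placed peaks of any class, and the deep share of 30.8% was near the 31.4% over all chromosomes.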

How the data were processed

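The data were 1 deposited text list of SP8 peaks, which the authors named for SP8 replicate 1, a q of 0.1 and a fold change of 3. Its 4 columns hold sequence name, start, end and a running number, which is neither a score nor a fold. The submitters' processing notes name FastQC, SAMtools, TopHat2, deepTools and MACS2 and the build GRCm38 (mm10), with no roles, settings or versions. Control library and pooling are not given in the sources used here, and whether starts count from 0 or 1 is not stated, so positions are printed as deposited.

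Peaks were placed by their centre in RefSeq genes of GRCm38.p6 (21523 protein-coding genes on chromosomes 1 to 19 and X with a start from 3 Mb on). The table has no exons, so introns and exons were not told apart. Starts, strand and sequence came from the RefSeq promoter table, which lists 1 or more starts per gene for 15213 of the 19064 genes with deep interior, and the other genes were left out of those comparisons. Deep interior is gene sequence more than 1000 bp from every protein-coding boundary, summed over genes. Where 2 genes held a peak, the shorter one gave its length and position for values per peak, and densities counted both genes. Shares carry Wilson intervals, densities exact Poisson intervals and medians binomial order-statistic intervals, all at 95%. Peaks of 1 list are not replicates, so no p-values are given. Python 3.11.15 with pandas 2.3.3 and scipy 1.17.1 was used, and the scripts were tested on simulated peaks.

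Members and gene lists were chosen with earlier results of these data known. Named genes followed a fixed rule: hosts of 3 or more deep peaks, the 12 closest pairs among hosts of 2, the 10 earliest and 10 widest peaks, the 5 longest and 5 shortest hosts, the 5 most remote peaks, hosts in the lists, and peaks at the margin and at noncoding boundaries. The starts, their sequences and the other genes at starts were chosen after their values were seen. No genome was used, so motifs were counted upstream of listed starts and not in the peaks. A few results by name, 1 gene list among them, are not reported here.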

Additional observations from a re-analysis of the deposited data

How the results depend on the processing

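Of 93 alternative values for 12 results, 75 planned and 18 chosen after seeing the data, 70 stayed within the interval of the reported value or, for counts, within 1.5 times of it, and 23 moved. Taking the first 724 placed peaks, which is fewer peaks by construction, gave 220 deep peaks, a median width of 360 bp, a median number of 356.5, a median host length of 121.5 kb, 10 genes with repeated peaks, 2.36% of hosts with a boundary peak, 0.909% of deep peaks with a neighbour within 10 kb, 6 Wnt hosts and 21 hosts in the lists. A margin of 0.5 kb gave 27.9% of deep peaks at a host start and a median of 20.6 kb to the 5′ end. A margin of 2 kb gave 7.22% of hosts with a boundary peak (the boundary window widens with the margin), a median host length of 113.5 kb and 41.0 kb to the 5′ end. A margin of 5 kb gave 13.1% at a host start, 7.72% with a boundary peak, 139.1 kb, 55.9 kb, 2.82% at a noncoding boundary and 4.08% with a neighbour. With a window of 2 kb, 28.7% of deep peaks were at a host start. Neighbour windows of 5 and 50 kb gave 4.63% and 18.5%. For these shifts the cause was not tested beyond what each setting does by construction. Leaving out predicted genes, merging peaks, placing whole peaks and autosomes alone moved none of the results they were applied to.

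Motif counts in the peaks themselves (4 alternatives) were not run, as no genome sequence was at hand. No paired analysis was possible because 1 peak list was analysed, which also leaves no replicate to omit. Depth is unknown, and a gene without a deep peak cannot be told apart from one below the calling threshold.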

Other observations

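Some deep peaks fell in mouse counterparts of genes that lie together in the human pseudoautosomal region, the stretch shared by the sex chromosomes. This group was chosen after its values were seen, and gets no test. Of 7 such genes placed in the gene table, 4 had a peak inside or within 1 kb: Csf2ra on chromosome 19, Il3ra on chromosome 14, Crlf2 on chromosome 5 and Asmt on chromosome X. Plcxd1, Gtpbp6 and Ppp2r3d had none. Of all protein-coding genes with deep interior, 2.23% held a deep peak and 3.07% had a peak at their own boundary. The share with a deep peak was 0.556% in genes of 2 to 10 kb and 1.27% in genes of 10 to 30 kb. Csf2ra, Il3ra and Crlf2 encode cytokine receptor chains and Asmt an enzyme of melatonin synthesis. Together they held 7 peaks, of which 5 were deep. The deep peaks were 414 and 1051 bp wide in Csf2ra, 1335 bp in Il3ra, 453 bp in Crlf2 and 1543 bp in Asmt, and the boundary peaks were 602 bp wide at Crlf2 and 1139 bp at Asmt. These 4 genes are short, from 4.42 kb for Crlf2 to 11.3 kb for Csf2ra. Read depth and the mapping of reads at these places were not tested.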
